A study of Rattus norvegicus with 12 samples.

Results

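The genes described here are those that moved the same way in rat calvarial bone whether a defect was cut with a rotating bur or with an Er:YAG laser, each set against bone that was not cut. The 8 arrays of cut bone (4 bur, 4 laser) were compared with the 4 control arrays, with equal weight for each method. A gene was counted as common when limma gave an adjusted p under 0.05 for the pooled contrast and for each method alone, with the same sign, and when all 8 cut arrays lay on one side of all 4 control arrays. Of 16432 genes tested, 1536 (9.35%) were common, 597 of them higher and 939 lower in cut bone.

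Every group was calvarial bone of rats 10 weeks old, taken 24 h after surgery, and strain and sex are not given in the sources used here. The bur group had a drilled defect 8 mm long and 3 mm wide, made in a few strokes at about 0.75 mm/s. The laser group had a defect of the same size, ablated with a chisel-shaped contact tip in 3 strokes at about 2 mm/s, with 20 pulses per second (Hz) of 200 µs and an output of 127 mJ per pulse. The control group had its periosteum, the fibrous membrane over the bone, removed and no bone ablated, although 1 label field calls it non-treated. The cut groups are thus set against bone that was also operated on. Nothing in the labels says that each sample of a group was another animal, and p-values therefore measure only the spread between these samples.

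The flat bones of the skull enclose narrow marrow spaces in which blood cells are made, so RNA of whole calvaria holds that of bone-forming cells, periosteal cells, vessels, macrophages and dividing blood cell precursors. A bone wound starts with a clot and an inflammatory phase. Damaged cells and macrophages release chemokines that draw monocytes, plasminogen activators clear fibrin, and fibroblast-like cells from the periosteum and marrow lay down a provisional matrix before bone is formed.

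Laser arrays lay on 1 slide and bur and control arrays on another, in separate columns, so method and slide or column cannot be told apart. The laser slide was brighter: its arrays had median processed signals of 55.6 to 81.9 and 67.5% to 72.0% of spots above background, against 18.6 to 28.3 and 57.0% to 59.9% on bur arrays and 16.5 to 43.2 and 57.2% to 64.4% on control arrays. The 2 methods were compared with the same 4 control arrays, so their values are given side by side and their likeness is not a separate result. Bone markers were present: Bglap (osteocalcin), Ibsp, Col1a1 and Dmp1 were well above background, the scanner's own detection call, on all 12 arrays, Sp7 on 10 and Phex on 8. Controls 1 and 4 stood apart in nervous-tissue genes. Mbp, the myelin basic protein gene, was at 13.29 and 12.37 log2 there, against 7.89 and 8.15 in controls 2 and 3 and 6.23 to 9.92 on the cut arrays. Without controls 1 and 4, 293 genes were common higher and 897 lower, and the pooled contrast called 1292 higher and 1728 lower. The counts of common and pooled calls are also given without them, from 2 control arrays, and genes that were not common without them are named as such.

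Across all genes tested, the pooled contrast called 3022 genes higher (18.4%) and 2270 lower (13.8%), bur alone 2162 (13.2%) and 1591 (9.68%), and laser alone 2951 (18.0%) and 2644 (16.1%). All 8 cut arrays lay above the 4 control arrays for 774 genes (4.71%) and below them for 1135 (6.91%), whether called or not. The common genes made up 3.63% of all genes on the higher side and 5.71% on the lower side, which is the background for every list below. The median gene differed by 0.07 log2 in the pooled contrast, 0.07 with the bur and 0.01 with the laser. Scaling each array to its 75th percentile, in place of quantile normalization, moved that median to -0.05. The pooled calls then were 2138 higher and 2790 lower, and the common genes 331 higher and 1147 lower.

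The common genes that were higher had a median difference of 1.04 log2 with the bur and 1.05 with the laser, and those that were lower had -0.93 and -0.97. At least 2-fold in each method were 231 genes higher (1.41% of all) and 325 lower (1.98%). Laser and bur differed from each other for 130 of the 597 higher genes (21.8%) and 100 of the 939 lower genes (10.6%), against 25.4% of all genes. Of these, 70 of the 130 were further from control with the laser, and 76 of the 100. The rule for common genes asks both methods to lie on the same side of the controls. That alone lowers these shares against all genes, so they do not measure how alike the methods are.

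**Figure D1:**
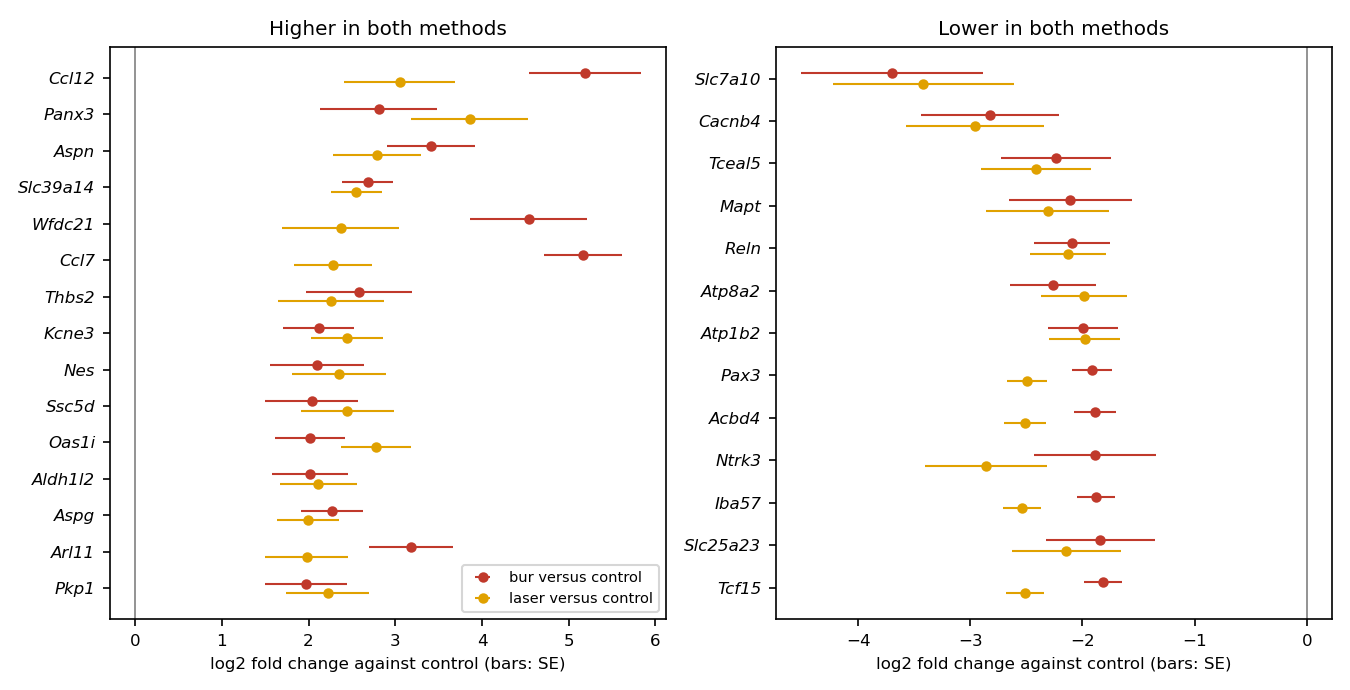
Log2 difference from control with its standard error for the 15 genes that rose furthest and 13 of the 15 that fell furthest among the common genes, ranked by the smaller of the 2 methods' differences, with bur and laser drawn separately (4 arrays a group). Ccl12 stood at 5.19 with the bur and 3.05 with the laser, and Reln at -2.09 and -2.13. Where no array of a group read a gene above background, the point is drawn from the signal as measured and the difference is only bounded.

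At the head of the higher genes stood monocyte chemokines, a channel of bone-forming cells, a matrix protein of periosteal cells and a zinc and iron transporter. Ccl12, a chemokine that attracts monocytes through the receptor Ccr2, measured 11.81, 10.80, 11.31 and 11.36 log2 on the bur arrays, 10.05, 8.45, 8.81 and 9.42 on the laser arrays and 8.20, 6.23, 5.54 and 4.56 on the control arrays. Every cut array exceeded every control array, and the mean differences were 5.19 ± 0.64 log2 (SE, n = 4 against 4) with the bur and 3.05 ± 0.64 with the laser (limma, adjusted p for the pooled contrast = 0.000454). Laser minus bur was -2.14 log2 (95% interval -3.55 to -0.73, adjusted p = 0.0312).

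Panx3, a membrane channel of osteoblasts and chondrocytes, measured 7.10, 4.50, 5.55 and 6.09 log2 on the bur arrays, 7.25, 6.90, 7.11 and 6.19 on the laser arrays and 4.34, 3.83, 1.17 and 2.68 on the control arrays. Cut and control arrays did not overlap, and 1 of the 4 control arrays was above background for it. The difference was 2.81 ± 0.68 with the bur and 3.86 ± 0.68 with the laser. With 75th percentile scaling Panx3 was not among the common genes. Aspn, the small leucine-rich protein asporin of periosteum and ligament, rose by 3.41 ± 0.50 and 2.79 ± 0.50 (adjusted p = 0.000557), with 2 control arrays above background.

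Slc39a14, the ZIP14 transporter that takes zinc and non-transferrin iron into cells and is induced in inflammation, measured 6.73, 5.86, 6.01 and 6.47 log2 on the bur arrays, 5.97, 6.50, 6.41 and 5.68 on the laser arrays and 3.83, 3.57, 4.09 and 2.85 on the control arrays. The cut arrays spanned a narrow band above every control array. Differences were close in size, 2.68 ± 0.29 with the bur and 2.55 ± 0.29 with the laser, and 3 of 4 control arrays were above background. The interval of laser minus bur ran from -0.78 to 0.52 log2.

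Ccl7 and Wfdc21 rose further with the bur than with the laser. Ccl7, a ligand of Ccr1, Ccr2 and Ccr3, measured 12.14, 11.57, 11.97 and 12.14 log2 on the bur arrays, 9.33, 8.62, 8.89 and 9.45 on the laser arrays and 7.99, 7.34, 6.34 and 5.49 on the control arrays. All laser arrays stood between the control and the bur arrays, at differences of 2.28 ± 0.45 with the laser and 5.17 ± 0.45 with the bur (laser minus bur -2.89, adjusted p = 0.000958). Wfdc21, a small secreted whey acidic protein domain gene, rose by 4.54 ± 0.68 and 2.37 ± 0.68, and laser minus bur was -2.17 (adjusted p = 0.0372). Wfdc21 was above background on 2 of the 4 control arrays.

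Thbs2, the matricellular protein thrombospondin 2, rose by 2.59 ± 0.61 with the bur and 2.26 ± 0.61 with the laser. Ssc5d, a secreted scavenger receptor, rose by 2.04 ± 0.54 and 2.45 ± 0.54. Nes, the intermediate filament nestin of stem and progenitor cells, rose by 2.10 ± 0.54 and 2.35 ± 0.54, with 2 control arrays above background for it and for Ssc5d. Pkp1, the desmosomal plaque protein plakophilin 1, was above background on all cut arrays and on no control array, so its rise is given as a bound, at least 3.56-fold with the bur and at least 4.24-fold with the laser (adjusted p = 0.00329). For such a bound only the group with no array above background was adjusted. Its arrays were raised to the lowest level that any probe read above background on that array, where their own level was lower. The group means were then compared. Thbs2 and Ssc5d were not common without controls 1 and 4, Ssc5d also not with 75th percentile scaling, and Pkp1 not with normexp.

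The remaining genes of the 15 had various roles. Kcne3, a regulatory subunit of potassium channels, rose by 2.12 ± 0.41 and 2.44 ± 0.41. Oas1i, of the 2′-5′-oligoadenylate synthetase family of antiviral enzymes, rose by 2.02 ± 0.41 and 2.78 ± 0.41, with 2 control arrays above background. Aldh1l2, the mitochondrial 10-formyltetrahydrofolate dehydrogenase, rose by 2.02 ± 0.44 and 2.11 ± 0.44, and was not common without controls 1 and 4. Aspg, an asparaginase, rose by 2.27 ± 0.36 and 1.99 ± 0.36. Arl11, a small GTPase active in macrophages, rose by 3.18 ± 0.48 and 1.98 ± 0.48, and was not common in the authors' deposited values.

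Pooled adjusted p-values (limma) ran from 8.24e-05 to 0.00588 over the 15 highest genes and from 9.68e-06 to 0.00543 over 13 of the 15 lowest. The size of the differences moved with the background correction. With normexp on the mean and background signals, in place of the scanner's processed signal, the 15 genes had pooled differences of 0.42 (Nes) to 3.19 (Ccl12) log2, with a median of 1.18 against 2.43. Those 13 of the lowest genes then had -2.39 to -0.56, with a median of -1.45 against -2.20. The directions of these 28 were kept.

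**Figure D2:**
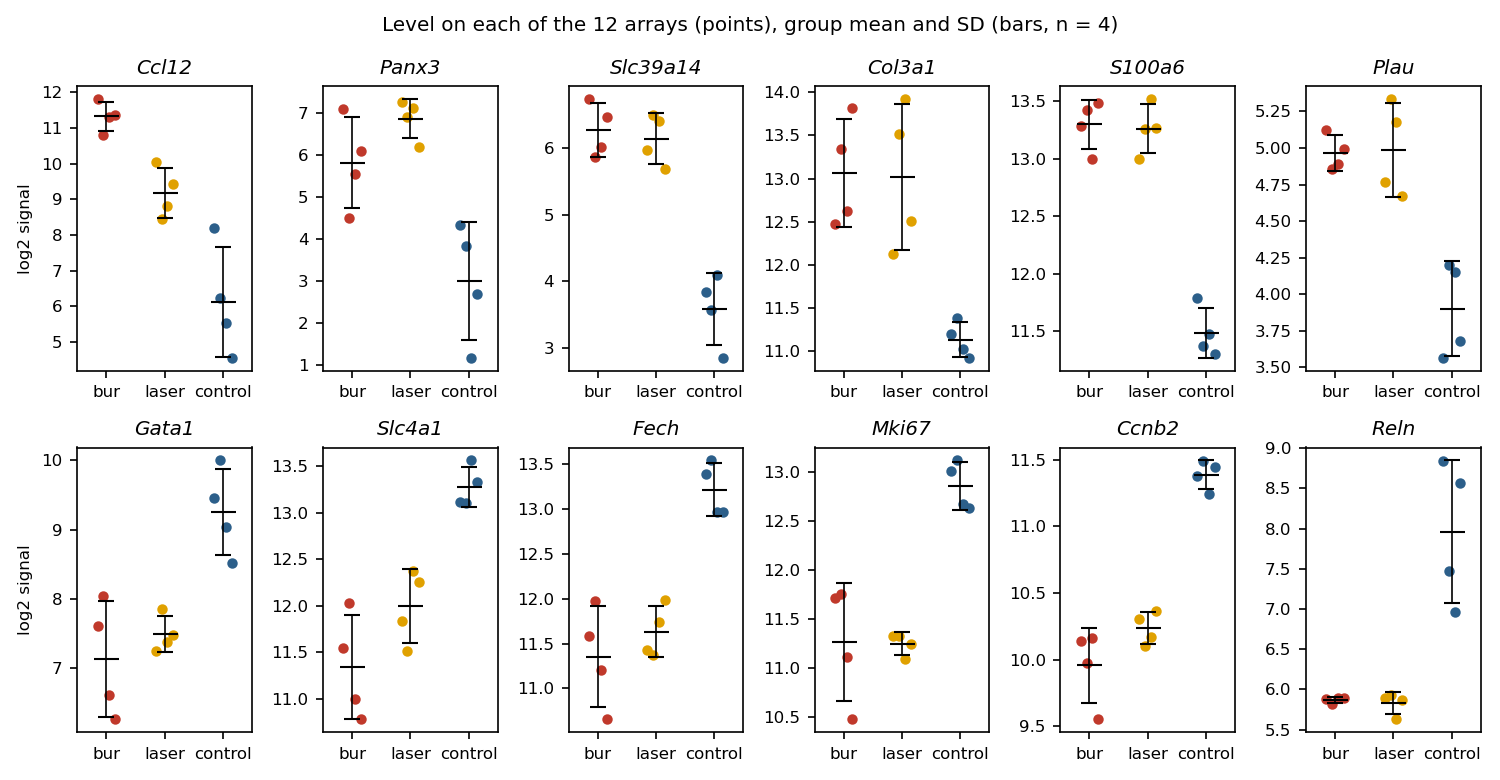
Quantile-normalized log2 level of 12 named genes on each of the 12 arrays, with bur, laser and control arrays as separate columns of points and a line at each group's mean. For Slc39a14, S100a6 and Fech every cut array stood apart from every control array, and for Ccl12 the laser arrays stood between control and bur.

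Among bright genes, chosen after their values were seen because both methods gave a like rise under most settings, were the fibrillar collagen Col3a1 and the calcium-binding protein S100a6. S100a6 measured 13.28, 13.42, 13 and 13.49 log2 on the bur arrays, 13, 13.26, 13.52 and 13.26 on the laser arrays and 11.79, 11.37, 11.47 and 11.30 on the control arrays. No cut array came within the range of the controls, and the differences were 1.82 ± 0.16 with the bur and 1.78 ± 0.16 with the laser. Col3a1, the type III collagen of early wound matrix, measured 12.48, 13.35, 12.62 and 13.81 log2 on the bur arrays, 12.13, 13.51, 13.92 and 12.51 on the laser arrays and 11.21, 11.39, 11.02 and 10.92 on the control arrays. The lowest cut array stayed above the highest control, with differences of 1.93 ± 0.40 and 1.88 ± 0.40 (adjusted p = 0.00218). With normexp the pooled values were 1.87 for S100a6 and 1.95 for Col3a1.

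Further genes were picked in this way. Steap1, a metalloreductase-family membrane protein, rose by 1.96 ± 0.35 with the bur and 2.12 ± 0.35 with the laser. Prrx2, a homeobox factor of mesenchymal progenitors and wounds, rose by 1.89 ± 0.32 and 2.57 ± 0.32. Tnfrsf12a, the receptor Fn14 for the cytokine TWEAK, rose by 1.83 ± 0.23 and 1.93 ± 0.23. Pvr, the nectin-like receptor CD155, rose by 1.73 ± 0.23 and 1.75 ± 0.23, and Rgs1, a brake on chemokine receptor signalling, by 2.25 ± 0.33 and 1.77 ± 0.33. Fbln1, the matrix protein fibulin 1, rose by 2.58 ± 0.43 and 1.83 ± 0.43, although its second probe read 2.16 and 0.62 and was not common, nor was Fbln1 in the authors' deposited values. Ch25h, which makes 25-hydroxycholesterol in activated macrophages, rose by 3.25 ± 0.31 with the bur and 1.88 ± 0.31 with the laser (laser minus bur -1.37, adjusted p = 0.00882).

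Of 20 chemokines measured, 9 rose and none fell in the pooled contrast, and 3 were common: Ccl7, Ccl12 and Cxcl16. That is 15% of the list, beside 3.63% of all genes. The list's median was 2.08 log2 with the bur and 0.96 with the laser, beside 0.07 and 0.01 over all genes. Cxcl16, a membrane-bound ligand for Cxcr6 on T cells, rose by 1.68 ± 0.21 and 1.37 ± 0.21 (adjusted p = 0.000234). Ccl2, the chief Ccr2 ligand, was called in the pooled contrast at 2.94 ± 0.36 but was not common, because the laser and control arrays overlapped: it measured 13.33, 13.03, 13.23 and 13.59 log2 on the bur arrays, 10.62, 10.32, 10.33 and 10.96 on the laser arrays and 10.36, 9.15, 8.61 and 7.84 on the control arrays. Of the list, 8 rose and 5 were common without controls 1 and 4. Laser was below bur for 7 of the 20 and above it for 1.

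Among 18 interleukins, TNF-family and colony-stimulating factors with their receptors, 12 rose and 2 fell in the pooled contrast, and 5 were common higher (27.8%) and 1 lower. Il18, the inflammasome-processed cytokine, measured 8.74, 8.90, 8.92 and 9.13 log2 on the bur arrays, 8.48, 8.70, 8.19 and 8.67 on the laser arrays and 7.44, 7.20, 7.53 and 6.88 on the control arrays. The 2 cut groups lay above all controls, at 1.66 ± 0.17 with the bur and 1.25 ± 0.17 with the laser. Il13ra1, a receptor chain for interleukins 4 and 13, rose by 1.32 ± 0.20 and 0.58 ± 0.20, and its other probe was not common. Il13ra1 was common in 8 of 19 settings, and not with 75th percentile scaling, in the authors' deposited values or without controls 1 and 4. Leaving out controls 1 and 4 gave 7 that rose and 1 that fell in the list, with 2 common higher and 1 lower.

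The other 3 cytokines of the list were dim. Il6, the main fever and acute-phase cytokine, was above background on no control array, 1 bur array and 4 laser arrays. Its rise was at least 1.90-fold with the laser (limma, adjusted p for the pooled contrast = 0.00422). With the bur it was 1.19-fold against the raised control arrays. The bur arrays below background entered that value as measured, so it is not a strict bound. Il11, an interleukin 6 family cytokine of stromal cells, rose by 1.89 ± 0.53 and 2.29 ± 0.53, with 2 control arrays above background. Tslp, an epithelial and stromal alarm cytokine, rose by 2.06 ± 0.36 and 1.34 ± 0.36, with 1 control array above background. Neither Il6 nor Il11 was common with normexp, with 75th percentile scaling or without controls 1 and 4, and Tslp was not with normexp.

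Csf3, the granulocyte colony-stimulating factor, went against its list and measured 6.44, 6.41, 6.42 and 6.75 log2 on the bur arrays, 6.31, 5.69, 5.59 and 6.51 on the laser arrays and 7.89, 8.07, 7.92 and 6.78 on the control arrays. All cut arrays were below all controls, at -1.16 ± 0.29 and -1.64 ± 0.29 (adjusted p = 0.00213). It was not common with normexp or in the authors' deposited values. Its probe holds a run of 11 alternating G and T bases, a kind of probe described further on.

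NF-kB feedback genes and targets rose mostly with the bur. Of 15 measured, 12 rose in the pooled contrast, 12 with the bur and 2 with the laser, and 2 (13.3%) were common, Ptgs2 and Tnfaip3. With controls 2 and 3 alone, 6 rose in the pooled contrast and 1 was common. Laser was below bur for 7 of them. Ptgs2, the inducible cyclooxygenase, measured 8.18, 7.66, 8.48 and 8.48 log2 on the bur arrays, 7.58, 7.94, 7.11 and 6.99 on the laser arrays and 5.63, 6.69, 6.16 and 5.43 on the control arrays. Cut and control arrays did not overlap, the differences were 2.22 ± 0.31 and 1.43 ± 0.31, and it was not common without controls 1 and 4. Tnfaip3, the ubiquitin-editing brake A20, rose by 1.86 ± 0.40 and 1.16 ± 0.40, with 3 control arrays above background. Its other probe read 1.08 with the bur and -0.38 with the laser and was not called. Tnfaip3 was common in 7 of 19 settings, and not with normexp, with 75th percentile scaling or without controls 1 and 4. Icam1, the leukocyte adhesion molecule, rose by 2.04 ± 0.23 with the bur and stood at 0.53 ± 0.23 with the laser (adjusted p = 0.102), so it was not common.

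Monocyte and macrophage genes were counted for the cells that clear debris. Of 18 measured, 10 rose in the pooled contrast and 13 with the bur, 5 with the laser, and 2 (11.1%) were common. With controls 1 and 4 left out, 5 rose in the pooled contrast and 2 were common. Laser was below bur for 10. The mean log2 level over the list was 9.07 to 10.26 on bur arrays, 7.64 to 8.50 on laser arrays and 7.33 to 8.09 on control arrays, so the laser and control arrays overlapped.

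Cd68, a lysosomal glycoprotein of macrophages and osteoclasts, measured 11.55, 11.53, 11.50 and 11.75 log2 on the bur arrays, 11.39, 11.20, 11.36 and 11.68 on the laser arrays and 9.94, 9.78, 10.83 and 10.63 on the control arrays. The cut arrays were all above the controls, at 1.28 ± 0.22 and 1.11 ± 0.22, and the interval of laser minus bur ran from -0.66 to 0.32. Cd14, the co-receptor for bacterial lipopolysaccharide, rose by 2.78 ± 0.31 with the bur and 1.05 ± 0.31 with the laser (laser minus bur -1.73, adjusted p = 0.00221), and was not common without controls 1 and 4. Cd14 was common in 13 of 19 settings. Msr1, the scavenger receptor A, was called in the pooled contrast at 2.37 ± 0.38 and was not common.

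C3ar1, the receptor for the complement fragment C3a, was the 1 common gene of 17 complement genes (5.88%), of which 4 rose in the pooled contrast. It measured 9.89, 10.25, 10.06 and 11.08 log2 on the bur arrays, 8.14, 8.63, 7.66 and 8.98 on the laser arrays and 6.72, 7.31, 6.80 and 6.31 on the control arrays. The laser arrays stood between the controls and the bur arrays, and the differences were 3.54 ± 0.33 with the bur and 1.57 ± 0.33 with the laser (adjusted p for laser minus bur = 0.00163). Of its 2 other probes 1 was common. Against controls 2 and 3, C3ar1 was common and 1 gene of the list rose. Of 13 neutrophil genes, none was common and 1 fell in the pooled contrast, while 2 were lower with the bur and 4 higher with the laser, and laser was above bur for 4.

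The plasminogen system dissolves fibrin in a clot. Of 15 measured, 7 rose and none fell in the pooled contrast, and 4 (26.7%) were common. The counts were 4 and 2 without controls 1 and 4. Plau, the urokinase that activates plasminogen, measured 5.13, 4.86, 4.89 and 4.99 log2 on the bur arrays, 4.76, 5.34, 5.18 and 4.67 on the laser arrays and 3.56, 4.20, 4.15 and 3.68 on the control arrays. All controls lay below all cut arrays, and the rise was 1.07 ± 0.19 with the bur and 1.09 ± 0.19 with the laser (adjusted p = 0.000942). Its pooled value was 0.20 with normexp, where it was not common. Plaur, the urokinase receptor, rose by 1.15 ± 0.24 and 0.96 ± 0.24, and was not common without controls 1 and 4, and its other probe, at 1.30 and 0.51, was not common. Tfpi2, a Kunitz-type inhibitor of plasmin, rose by 1.57 ± 0.38 and 1.53 ± 0.38, with 3 control arrays above background, and was not common without controls 1 and 4.

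Promoters of 2 common genes that rose are shown because each holds a match to the AP-1 motif TGANTCA, the site of Fos and Jun proteins. They are the 250 bases before the gene start from RefSeq on the GRCr8 build, 5′ to 3′ on the gene's own strand, with the match in capitals. For Ccl7 the region is chr10:67513845-67514094 (plus strand) and the match begins 73 bases before the start. For Il11 it is chr1:78098372-78098621 (plus strand), with the match 142 bases before the start.
Ccl7: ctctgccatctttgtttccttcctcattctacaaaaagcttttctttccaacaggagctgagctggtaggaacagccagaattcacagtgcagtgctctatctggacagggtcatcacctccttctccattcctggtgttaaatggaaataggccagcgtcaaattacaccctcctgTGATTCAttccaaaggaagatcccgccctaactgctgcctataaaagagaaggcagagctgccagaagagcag
Il11: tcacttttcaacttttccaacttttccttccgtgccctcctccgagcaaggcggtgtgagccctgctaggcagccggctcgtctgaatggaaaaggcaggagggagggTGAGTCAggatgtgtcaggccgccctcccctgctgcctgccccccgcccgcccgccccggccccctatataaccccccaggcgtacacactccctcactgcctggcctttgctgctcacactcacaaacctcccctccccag
Within windows of 300 bases (250 before and 50 after the start, both strands), the motif was in 47 of 454 common higher genes with a promoter sequence (10.4%). It was in 35 of 744 common lower genes (4.70%), 5.44% of the genes tested and 7.33% of all 27457 promoters. The NF-kB motif was in 1.98% of common higher genes, the hypoxia motif ACGTG in 25.8% and the interferon response motif in 1.76%, against 1.76%, 24.2% and 3.13% of the genes tested. A match describes the letters of the window only.

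Matrix proteases, their inhibitors and matrix proteins formed 2 lists. Of 20 genes for matrix remodelling and wounds, 14 rose and none fell in the pooled contrast, and 4 (20%) were common: Tnc, Adamts9, Adamts4 and Timp1. Without controls 1 and 4, 4 of the 20 rose and none was common. Tnc, the anti-adhesive wound matrix protein tenascin C, measured 8.30, 7.82, 7.35 and 8.25 log2 on the bur arrays, 8.63, 8.50, 8.37 and 8.08 on the laser arrays and 6.98, 7.18, 7.03 and 6.83 on the control arrays. Every cut array was above every control array, at 0.92 ± 0.21 with the bur and 1.39 ± 0.21 with the laser.

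Timp1, the secreted inhibitor of matrix metalloproteinases, measured 14.08, 13.94, 14.02 and 13.92 log2 on the bur arrays, 14.32, 14.71, 14.64 and 13.40 on the laser arrays and 12.98, 13.32, 11.97 and 11.34 on the control arrays. No control array reached the cut arrays, and the differences were 1.59 ± 0.41 and 1.87 ± 0.41. Adamts9 and Adamts4, proteases that cleave versican and aggrecan, rose by 0.82 ± 0.21 and 1.5 ± 0.38 with the bur and by 1.43 ± 0.21 and 1.75 ± 0.38 with the laser. Timp1 and Adamts4 were not common with normexp or with 75th percentile scaling.

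Collagen genes gave 11 of 17 that rose in the pooled contrast, 0 that fell and 5 (29.4%) that were common, beside Col3a1 the 3 chains of type VI collagen and Col18a1. The list mean was 9.68 to 10.23 log2 on bur arrays, 9.99 to 10.54 on laser arrays and 8.84 to 9.58 on control arrays, with no overlap between cut and control. Col6a3, the large chain of the microfibrillar type VI collagen, rose by 1.15 ± 0.25 and 1.41 ± 0.25, and all 4 of its probes were common. Col6a1 rose by 1.30 ± 0.31 and 1.24 ± 0.31, and its second probe, at 1.08 and 0.13, was not common. Col6a2 rose by 1.0 ± 0.29 and 1.02 ± 0.29, and its other probe, at 1.15 and 0.97, was not common. Col18a1, the basement membrane collagen that holds endostatin, rose by 0.96 ± 0.16 and 0.91 ± 0.16. With controls 2 and 3 alone, 4 of the 17 rose, and Col3a1 and Col18a1 were the 2 common genes.

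Of 15 periosteal and fibroblast genes, 9 rose in the pooled contrast and 3 (20%) were common, Aspn, Col3a1 and Scx. With controls 1 and 4 left out, 6 rose and 2 were common. Scx, the tendon and ligament factor scleraxis, rose by 1.30 ± 0.34 and 1.90 ± 0.34, and was not common without controls 1 and 4. The control bone had lost its periosteum and the labels do not say how much periosteum any RNA sample held.

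**Figure D3:**
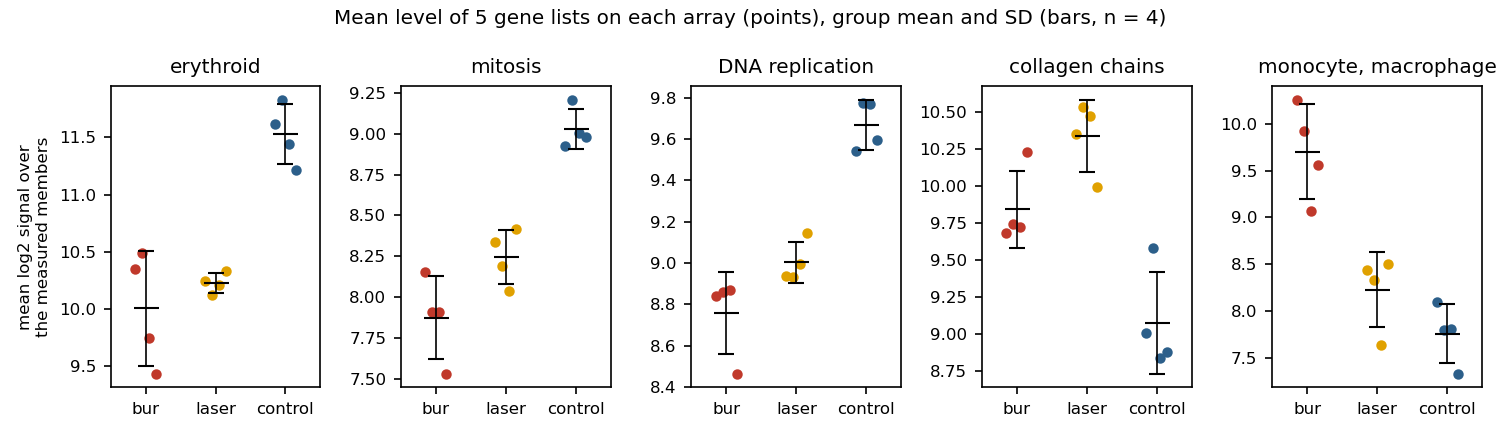
Mean log2 level over the measured genes of 5 lists on each array, by group. The erythroid, mitosis and DNA replication lists were lower on all 8 cut arrays than on all 4 controls, the collagen list was higher, and for the macrophage list the laser and control arrays overlapped.

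The bone cell lists gave few common genes. None of 14 osteoblast genes was common, while 6 rose in the pooled contrast, and 1 rose without controls 1 and 4. Sp7, the osteoblast factor osterix, was called at 1.40 ± 0.32 and Runx2, the master factor of osteoblast lineage, at 0.83 ± 0.19, and neither was common. Arrays of cut and control bone overlapped for Sp7, and the adjusted p of Runx2 was 0.0504 with the bur. Of 13 osteocyte genes 5 rose and 1 fell in the pooled contrast (2 and 0 without controls 1 and 4), and 1 was common. That gene was Tnfrsf11b, the decoy receptor osteoprotegerin that blocks osteoclast formation, which measured 6.79, 6.55, 7.29 and 6.94 log2 on the bur arrays, 7.86, 8.02, 7.34 and 6.86 on the laser arrays and 5.01, 6.20, 6.24 and 5.09 on the control arrays. The cut arrays were all above the controls, at 1.26 ± 0.34 and 1.89 ± 0.34, and the gene was not common without controls 1 and 4.

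Of 13 osteoclast genes, 3 rose and 1 fell in the pooled contrast (0 and 1 without controls 1 and 4), and the one that fell, Car2, was common. Car2, carbonic anhydrase II, serves acid secretion in osteoclasts and carbon dioxide transport in red cells. It measured 12.01, 11.98, 11.50 and 11.19 log2 on the bur arrays, 12.46, 12.02, 12.38 and 12.63 on the laser arrays and 13.13, 13.29, 13.05 and 13.02 on the control arrays. The bur arrays were lowest, the laser arrays between, and the differences were -1.45 ± 0.20 and -0.75 ± 0.20 (laser minus bur 0.70, adjusted p = 0.0242). It was not common without controls 1 and 4.

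Of 20 Wnt ligands, receptors and targets, 7 rose and none fell in the pooled contrast, and 2 (10%) were common. Against controls 2 and 3, 4 rose and 1 was common. Wnt5a, a non-canonical ligand, rose by 0.98 ± 0.24 with the bur and 1.74 ± 0.24 with the laser (laser minus bur 0.76, adjusted p = 0.041), and its other probe was not common. Wnt4 rose by 0.82 ± 0.17 and 0.72 ± 0.17. Both had 2 control arrays above background, and neither was common with 75th percentile scaling or with normexp, where the pooled values were 0.29 and 0.25. Wnt4 was also not common in the authors' deposited values or without controls 1 and 4.

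The heat shock list split. Of 13 genes, 5 rose and 1 fell in the pooled contrast, and 2 were common higher and 1 lower. Without controls 1 and 4, 3 rose and 1 fell, and the gene that fell was the 1 common gene. Hspb8, a small chaperone of selective autophagy, rose by 2.38 ± 0.51 and 2.68 ± 0.51, with 1 control, 2 bur and 4 laser arrays above background. Hspa8, the constitutive Hsc70 chaperone, rose by 0.46 ± 0.12 and 0.51 ± 0.12 on its brightest probe, and its 3 other probes were not common. Both were not common without controls 1 and 4. Hsp90ab1, the constitutive Hsp90 beta, stood at -0.83 ± 0.19 and -0.78 ± 0.19, but its 2 other probes read 0.12 and 0.01 with the bur and 0.54 and 0.18 with the laser and were not called. It was not common with normexp, with 75th percentile scaling or in the authors' deposited values, nor was Hspa8 with the last 2 of these.

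Energy and stress lists moved little in common. Of 18 glycolysis genes, 7 rose and 1 fell in the pooled contrast, 15 rose with the bur and 1 with the laser, and laser was below bur for 14. With controls 2 and 3 alone, 2 rose in the pooled contrast. Pdk1, the kinase that closes pyruvate entry to mitochondria, was the 1 common gene, at 1.60 ± 0.21 and 0.80 ± 0.21 (adjusted p for laser minus bur = 0.0161). Its 3 other probes were not common, and Pdk1 was not common without controls 1 and 4 or in the authors' deposited values. Gapdh, a glycolytic enzyme often used as a reference gene, rose by 1.12 ± 0.15 with the bur and stood at -0.39 ± 0.15 with the laser (adjusted p = 0.0589).

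Of 19 unfolded-protein and amino acid stress genes, 3 rose and 3 fell in the pooled contrast, and the 3 that fell were common (15.8%). Asns, asparagine synthetase, measured 9.98, 9.80, 9.60 and 9.27 log2 on the bur arrays, 10.14, 9.88, 9.84 and 10.17 on the laser arrays and 11.25, 11.34, 10.85 and 10.86 on the control arrays. All cut arrays lay below the controls, at -1.41 ± 0.18 and -1.07 ± 0.18, and its other probe was also common. Psat1 of serine synthesis and Calr, the endoplasmic reticulum chaperone calreticulin, stood at -0.77 ± 0.17 and -0.57 ± 0.16 with the bur and -0.72 ± 0.17 and -0.69 ± 0.16 with the laser. With controls 1 and 4 left out, 1 gene rose and 1 fell, and Asns alone of the 3 was common. Psat1 was also not common with normexp or in the authors' deposited values. Of 20 oxidative phosphorylation genes, 6 fell in the pooled contrast and 2 were common, Sdha of complex II at -0.38 ± 0.12 and -0.56 ± 0.12, and Cox7b of complex IV at -0.32 ± 0.10 and -0.34 ± 0.10. Neither was common with normexp, with 75th percentile scaling, in the authors' deposited values or without controls 1 and 4, where 1 gene of the list fell. Sdha was common in 2 of 19 settings and Cox7b in 3 of 19.

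**Figure D4:**
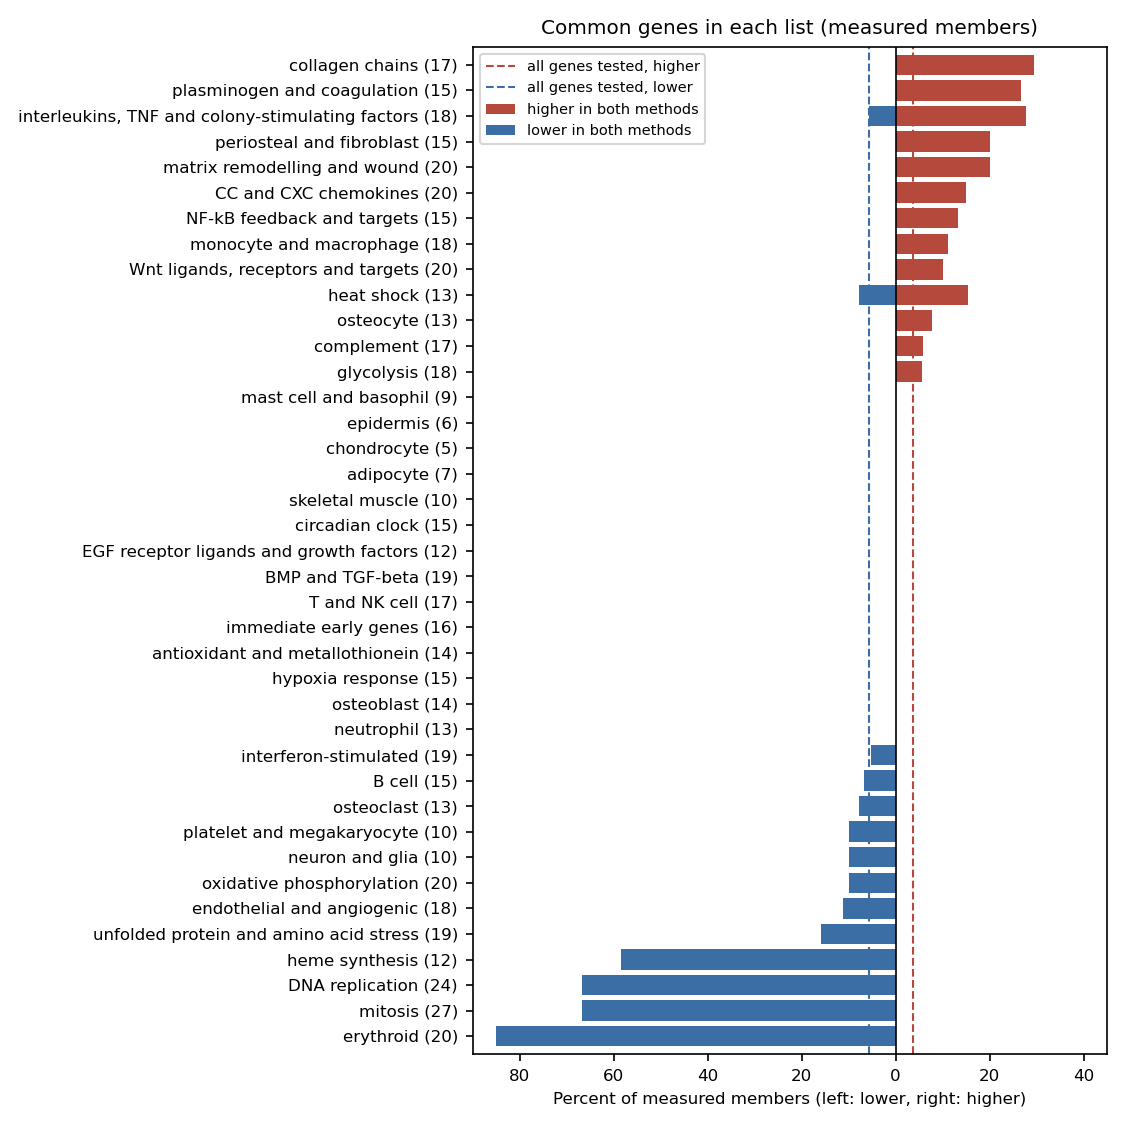
Percent of the measured genes of each list that were common, higher or lower in cut bone, with dashed lines at the shares over all genes tested (3.63% higher, 5.71% lower). The erythroid list stood at 85% lower and the mitosis and DNA replication lists at 66.7% lower.

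On the lower side, red cell genes formed the fullest list. Of 20 erythroid genes measured, 19 fell and none rose in the pooled contrast, and 17 (85%) were common, beside 5.71% of all genes. The gene not called was Hba-a1, an alpha globin, at -0.01 log2 with the bur and 0.16 with the laser. Hbb, a beta globin, stood at -0.91 and -0.31, and Trim10 at -1.07 and -0.67, and neither was common. The list's median was -1.65 log2 with the bur and -1.39 with the laser, and without controls 1 and 4 there were 17 that fell and 16 common genes in the list. The mean level over the list was 9.43 to 10.49 log2 on bur arrays, 10.12 to 10.33 on laser arrays and 11.21 to 11.83 on control arrays. In bulk bone, fewer cells of a type and less RNA per cell cannot be told apart.

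The list holds transcription factors, a receptor and membrane proteins of red cell precursors. Gata1, the master factor of red cells and megakaryocytes, measured 7.61, 8.04, 6.60 and 6.25 log2 on the bur arrays, 7.25, 7.85, 7.37 and 7.47 on the laser arrays and 9.46, 10.0, 9.04 and 8.52 on the control arrays. The lowest control lay above the highest cut array, and the falls were -2.13 ± 0.40 and -1.77 ± 0.40. Klf1, the factor that switches on adult globin, fell, at -1.59 ± 0.19 with the bur and -1.28 ± 0.19 with the laser (adjusted p = 0.000178). Epor, the erythropoietin receptor, measured 10.15, 10.92, 10.56 and 9.97 log2 on the bur arrays, 10.15, 10.30, 10.36 and 10.37 on the laser arrays and 11.74, 11.93, 11.79 and 11.55 on the control arrays. Its cut arrays were separate from the controls, with -1.36 ± 0.19 and -1.46 ± 0.19.

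Slc4a1, the anion exchanger band 3 of the red cell membrane, measured 11.54, 12.03, 11 and 10.78 log2 on the bur arrays, 11.83, 11.52, 12.38 and 12.26 on the laser arrays and 13.11, 13.11, 13.56 and 13.33 on the control arrays. Every cut array lay below every control array, with falls of -1.94 ± 0.28 and -1.28 ± 0.28. Rhag, the Rh-associated glycoprotein, fell, at -1.77 ± 0.28 and -1.85 ± 0.28.

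Tfrc, the transferrin receptor, fell, at -1.32 ± 0.32 with the bur and -0.97 ± 0.32 with the laser, and was not common with 75th percentile scaling or without controls 1 and 4. Tfr2, the second transferrin receptor, fell, at -1.70 ± 0.20 and -1.78 ± 0.20 on its brightest probe, and its other probe was not called. Tspo2, a translocator protein of erythroblasts, fell, at -1.71 ± 0.35 and -1.91 ± 0.35, and its other probe, at -1.72 and -1.14, was not common. Slc4a1, Tfr2, Tspo2 and Rhag were named after their values were seen.

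Genes of heme synthesis fell too: all 12 genes measured were lower in the pooled contrast and 7 (58.3%) were common. Those counts were 9 and 7 without controls 1 and 4. The medians were -1.40 with the bur and -0.93 with the laser. Alas2, the erythroid enzyme of the first step, measured 13.48, 13.93, 13.09 and 12.86 log2 on the bur arrays, 13.39, 13.19, 13.81 and 14.20 on the laser arrays and 15.03, 15.07, 15.26 and 15.01 on the control arrays. The control arrays were all above the cut arrays, with falls of -1.75 ± 0.26 and -1.44 ± 0.26. Uros, of the fourth step, fell, at -1.62 ± 0.29 and -1.87 ± 0.29, and its other probe, at -1.48 and -0.67, was not common. Fech, ferrochelatase, which inserts the iron, measured 11.59, 11.98, 11.21 and 10.65 log2 on the bur arrays, 11.43, 11.37, 11.74 and 11.99 on the laser arrays and 13.39, 13.54, 12.96 and 12.97 on the control arrays. Again no cut array reached the controls, at -1.86 ± 0.27 and -1.58 ± 0.27.

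Promoters of Alas2 and Epor are shown because each holds the letters AGATAA that GATA factors bind, on one strand or the other. They are given as above, in the gene's direction. The Alas2 region is chrX:22895200-22895449 (plus strand), with the match 136 bases before the start, and the Epor region is chr8:28770323-28770572 (minus strand), with the match in reverse complement 114 bases before it.
Alas2: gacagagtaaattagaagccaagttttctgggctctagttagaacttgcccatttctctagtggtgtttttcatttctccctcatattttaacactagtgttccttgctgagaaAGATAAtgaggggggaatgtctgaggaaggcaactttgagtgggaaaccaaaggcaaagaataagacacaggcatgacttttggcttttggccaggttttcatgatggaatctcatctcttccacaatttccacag
Epor: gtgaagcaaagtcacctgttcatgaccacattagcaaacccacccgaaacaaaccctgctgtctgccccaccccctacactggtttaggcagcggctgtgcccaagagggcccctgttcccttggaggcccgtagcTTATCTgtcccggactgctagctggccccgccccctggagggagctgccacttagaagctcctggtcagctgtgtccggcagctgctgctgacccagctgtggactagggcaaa
In the 300-base windows, AGATAA was in 4 of 13 common erythroid genes with a promoter sequence (30.8%) and 2 of 6 common heme genes (33.3%), against 7.05% of the genes tested and 11.3% of all promoters. Alas2 belongs to both lists and is counted in both shares, so they are not separate.

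Genes of cell division fell with both methods. Of 27 mitosis genes measured, 24 fell and none rose in the pooled contrast, 25 fell with the bur and 21 with the laser, and 18 (66.7%) were common. Against controls 2 and 3, 22 fell and 15 were common. The median was -1.23 log2 with the bur and -0.82 with the laser, and laser was above bur for 9 of the 27. The list mean was 7.53 to 8.15 log2 on bur arrays, 8.04 to 8.42 on laser arrays and 8.93 to 9.21 on control arrays.

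Ccnb2, cyclin B2, which drives entry to mitosis with Cdk1, measured 10.14, 9.97, 10.16 and 9.55 log2 on the bur arrays, 10.30, 10.10, 10.17 and 10.36 on the laser arrays and 11.38, 11.49, 11.25 and 11.44 on the control arrays. All cut arrays were below all controls, at -1.43 ± 0.15 and -1.16 ± 0.15, and its second probe was common too. Cdk1, the mitotic kinase itself, measured 11.22, 11.14, 11.33 and 10.76 log2 on the bur arrays, 11.12, 10.86, 10.84 and 11.17 on the laser arrays and 12.30, 12.45, 12.22 and 12.39 on the control arrays. It fell, at -1.23 ± 0.15 and -1.34 ± 0.15 (adjusted p = 8.43e-05), with no overlap.

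Ccna2, cyclin A2 of S phase and early mitosis, fell, at -1.31 ± 0.15 and -1.35 ± 0.15, while its second probe read -1.21 and -0.44 and was not common. Kif11, the spindle motor Eg5, fell, at -1.24 ± 0.18 and -1.24 ± 0.18. Prc1, which bundles the microtubules of the central spindle, fell, at -1.14 ± 0.17 and -1.19 ± 0.17. Mki67, the proliferation antigen Ki-67, stood at -1.60 ± 0.26 and -1.61 ± 0.26. Of its 4 probes 2 were common, and 1 read -1.23 with the bur and 1.99 with the laser.

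DNA replication genes followed the same counts. Of 24 measured, 21 fell and none rose in the pooled contrast, and 16 (66.7%) were common, with medians of -0.95 and -0.84. Against controls 2 and 3, 18 fell and 15 were common. Mcm7, a subunit of the helicase that opens DNA at origins, measured 10.69, 11.19, 11.17 and 11.03 log2 on the bur arrays, 10.83, 10.94, 11.03 and 11.16 on the laser arrays and 11.87, 11.99, 12.09 and 12 on the control arrays. Its cut arrays lay below the controls without overlap, at -0.97 ± 0.14 and -1.0 ± 0.14. Mcm4 of the same helicase fell, at -1.01 ± 0.14 and -1.0 ± 0.14, and 2 of its 3 probes were common. Rrm2, the regulated subunit of ribonucleotide reductase, fell, at -1.15 ± 0.18 and -0.96 ± 0.18, and Tk1, thymidine kinase, at -1.47 ± 0.18 and -1.03 ± 0.18. H1f5, a linker histone made in S phase and named after its values were seen, fell, at -1.67 ± 0.28 and -1.77 ± 0.28.

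Promoters of Ccnb2, Cdk1 and Prc1 are shown because each holds both CCAAT, the site of the factor NF-Y, and TTTGAA, the cell cycle homology region that is bound by the DREAM complex. They are the 250 bases before the start, with the matches on either strand in capitals. Ccnb2 lies at chr8:79981659-79981908 (minus strand), with CCAAT matches 134, 101 and 68 bases and homology-region matches 214 and 43 bases before the start. Cdk1 lies at chr20:19265043-19265292 (plus strand), with CCAAT at 210, 81 and 49 and TTTGAA at 72 and 16. Prc1 lies at chr1:143659231-143659480 (plus strand), with CCAAT at 239 and 50 and TTTGAA at 18.
Ccnb2: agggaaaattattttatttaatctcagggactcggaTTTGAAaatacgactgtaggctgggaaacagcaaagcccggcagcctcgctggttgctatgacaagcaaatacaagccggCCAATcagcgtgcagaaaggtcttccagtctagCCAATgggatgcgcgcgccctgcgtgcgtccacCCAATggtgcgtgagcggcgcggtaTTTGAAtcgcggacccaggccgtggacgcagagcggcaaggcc
Cdk1: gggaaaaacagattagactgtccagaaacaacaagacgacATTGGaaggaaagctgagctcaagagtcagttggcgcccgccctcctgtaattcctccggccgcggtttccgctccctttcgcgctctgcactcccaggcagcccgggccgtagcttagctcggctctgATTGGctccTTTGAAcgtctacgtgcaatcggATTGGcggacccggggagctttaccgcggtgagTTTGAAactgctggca
Prc1: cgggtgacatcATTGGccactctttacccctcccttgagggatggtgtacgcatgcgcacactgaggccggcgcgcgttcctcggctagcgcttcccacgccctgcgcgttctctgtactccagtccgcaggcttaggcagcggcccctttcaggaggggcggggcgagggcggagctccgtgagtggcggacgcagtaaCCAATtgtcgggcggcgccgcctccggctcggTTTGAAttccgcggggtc
Of 17 common mitosis genes with a promoter sequence, 12 held CCAAT (70.6%), 13 held TTTGAA (76.5%) and 10 held both (58.8%). Over the genes tested these shares were 37.7%, 12.8% and 5.21%, and over all promoters 37.7%, 18.1% and 7.25%. Of 13 common replication genes, 9 held CCAAT (69.2%), 1 held TTTGAA (7.69%) and 0 held both.

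Several of the 15 lowest genes are known from neurons and glia, whose markers were high in controls 1 and 4. Of 10 neuron and glia markers measured, 1 was common, 3 fell and 1 rose in the pooled contrast, and 2 fell and 1 rose without those controls. Their mean log2 level was 7.68 and 7.11 in controls 1 and 4, 5.71 and 4.95 in controls 2 and 3, 4.19 to 5.27 on bur arrays and 4.75 to 5.85 on laser arrays. The part of nervous tissue in these differences was not tested. None of the list was common when these controls were left out.

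Slc7a10, a glycine, serine and alanine transporter of astrocytes, stood at -3.70 ± 0.81 with the bur and -3.42 ± 0.81 with the laser, with 1 bur and 1 laser array above background. With the other cut arrays raised to the background limit where they were lower, its differences were -2.35 and -3.02. Cacnb4, a calcium channel subunit, fell at least 5.06-fold with the bur and stood at -2.96 ± 0.62 log2 with the laser (pooled adjusted p = 0.00237), where 2 arrays were above background. With controls 2 and 3 alone, Cacnb4 was common at a pooled -1.61, against -2.89 with them, and Slc7a10 was not common. Neither was common with normexp, where the pooled differences were -0.56 and -0.65.

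Reln, the secreted glycoprotein reelin, was made brightly enough to be read on every array. It measured 5.88, 5.82, 5.89 and 5.89 log2 on the bur arrays, 5.90, 5.93, 5.63 and 5.87 on the laser arrays and 8.84, 7.48, 6.96 and 8.56 on the control arrays. Controls 1 to 4 all lay above the cut arrays, with falls of -2.09 ± 0.34 and -2.13 ± 0.34, and all 3 of its probes were common. Without controls 1 and 4 its pooled difference was -1.37 and it remained common. Atp1b2, a sodium pump subunit of glia, measured 8.47, 9.25, 8.78 and 8.11 log2 on the bur arrays, 8.13, 8.31, 9.45 and 8.79 on the laser arrays and 10.51, 11.12, 10.35 and 10.61 on the control arrays. Its falls of -1.99 ± 0.32 and -1.98 ± 0.32 were -2.07 pooled without those controls.

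Others of the 15 moved more when controls 1 and 4 were left out, or were dim. Mapt, the microtubule protein tau, stood at -2.11 ± 0.55 and -2.31 ± 0.55, and at -1.07 pooled without controls 1 and 4, and its second probe was not common. Ntrk3, the neurotrophin 3 receptor, stood at -1.89 ± 0.54 and -2.86 ± 0.54, with 2 bur and 3 laser arrays above background, and 2 of its 4 probes were common. Tceal5, a transcription elongation factor A-like gene, fell at least 3.98-fold with the bur and stood at -2.41 ± 0.49 log2 with the laser (pooled adjusted p = 0.0022), where 3 arrays were above background. Atp8a2, a phospholipid flippase of neurons, fell at least 4.73-fold with the bur and stood at -1.99 ± 0.39 log2 with the laser (pooled adjusted p = 0.000994). Slc25a23, a mitochondrial ATP-magnesium and phosphate carrier, stood at -1.84 ± 0.49 and -2.14 ± 0.49, and at -1.15 pooled without controls 1 and 4. Slc1a2, the glial glutamate transporter and the 1 common gene of the marker list, stood at -2.95 ± 0.63 log2 with the laser (limma, pooled adjusted p = 0.00224). It had 1 laser and 3 control arrays above background. With the bur it fell 3.59-fold against bur arrays raised to the background limit. The dim control array entered that value as measured, so it is not a strict bound. Mapt, Ntrk3, Tceal5, Slc25a23 and Slc1a2 were not common without controls 1 and 4, and Slc1a2 also not with 75th percentile scaling.

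Blood and vessel lists beside the red cells held few common genes. Cd22, a B-cell receptor inhibitor, was the 1 common gene of 15 B-cell genes. It fell, at -1.77 ± 0.27 and -1.74 ± 0.27 on its brightest probe, and its 2 other probes, at -0.08 and 0.18 with the bur and 0.38 and 0.32 with the laser, were not called. Vwf, the von Willebrand factor of endothelium and platelets, fell, at -0.93 ± 0.26 and -1.02 ± 0.26, and Angpt1, the Tie2 ligand that steadies vessels and is made by stromal cells and megakaryocytes, at -0.83 ± 0.20 and -0.90 ± 0.20. These were the 2 common genes of 18 endothelial genes, of which 7 rose and 2 fell in the pooled contrast (3 and 2 without controls 1 and 4). Vwf was not common with 75th percentile scaling or without controls 1 and 4. The second probe of Vwf and 2 further probes of Angpt1 were not called, and Angpt1 was not common in the authors' deposited values. Of 10 platelet and megakaryocyte genes, 4 fell in the pooled contrast (3 without controls 1 and 4) and Vwf alone was common.

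Of 19 interferon-stimulated genes, 8 rose and 2 fell in the pooled contrast. With the bur 12 were higher and 1 lower, and with the laser none was higher and 4 were lower. With controls 1 and 4 left out, 2 rose and 1 fell. The 1 common gene was lower: Rsad2, the antiviral enzyme viperin, fell, at -1.34 ± 0.27 and -1.60 ± 0.27 (adjusted p = 0.00107). Ddx58, the viral RNA sensor RIG-I, was called higher in the pooled contrast at 0.84 ± 0.18, from 1.64 ± 0.21 with the bur and 0.04 ± 0.21 with the laser, and was not common.

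Pax3, Acbd4, Iba57 and Tcf15, all among the 15 lowest genes, were read by probes whose sequence is a run of alternating G and T. The last 30 bases of each 60-base probe are shown, 5′ to 3′, because they are nearly alike. Capitals mark the alternating run within the bases shown.
Iba57: GTGTGTGTGTGTGTGTGTGTGTGTGTGTGT
Acbd4: GTGTGTGTGTGTGTGTGTGTGTGTGTGTGT
Pax3: ttccaTGTGTGTGTGTGTGTGTGTGTGTGT
Tcf15: agcGTGTGTGTGTGTGTGTGTGTGTGTctg
The runs are 31 bases long in the probes of Iba57 and Acbd4, 25 in that of Pax3 and 24 in that of Tcf15, and the first pair share the same last 30 bases. Iba57, named for a mitochondrial iron-sulfur assembly factor, measured 12.95, 13.05, 12.69 and 12.47 log2 on the bur arrays, 12.24, 11.94, 11.99 and 12.36 on the laser arrays and 14.69, 14.67, 14.92 and 14.40 on the control arrays. The arrays of each group lay close together and apart from the others, at -1.88 ± 0.17 with the bur and -2.54 ± 0.17 with the laser. Acbd4 stood at -1.89 ± 0.19 and -2.51 ± 0.19, Pax3 at -1.91 ± 0.18 and -2.49 ± 0.18, and Tcf15 at -1.82 ± 0.17 and -2.51 ± 0.17.

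Probes of this kind moved as a set whatever gene they were named for. Of 27 kept probes with a run of 16 or more bases, 25 (92.6%) were common lower, against 4.70% of probes with a run of 7 or fewer. Their medians were -1.75 log2 with the bur and -2.20 with the laser. The 2 others, Cldn15 and Hivep3, stood at -1.5 and -1.71 with the bur and at -0.38 and -0.30 with the laser. Among the 27 genes, 7 had another kept probe without such a run, and none of those 7 probes was common, with pooled differences of -0.83 to 0.99. The other probe of Iba57 read -0.17 with the bur and 0.72 with the laser, and that of Gramd1c read 1.0 and 0.97, against -1.75 and -2.45 on its repeat probe. For Hdac8 the repeat probe read -1.75 and -1.93, and the other -0.21 and 0.04. Probes with a run of 16 or more alternating C and A, the complementary letters, had medians of 0.93 and 1.05 over 21 probes, and 3 of them were common higher. Whether the repeat probes read the genes they are named for was not tested. Of the 939 common lower genes, 25 were read by a GT-repeat probe.

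**Figure D5:**
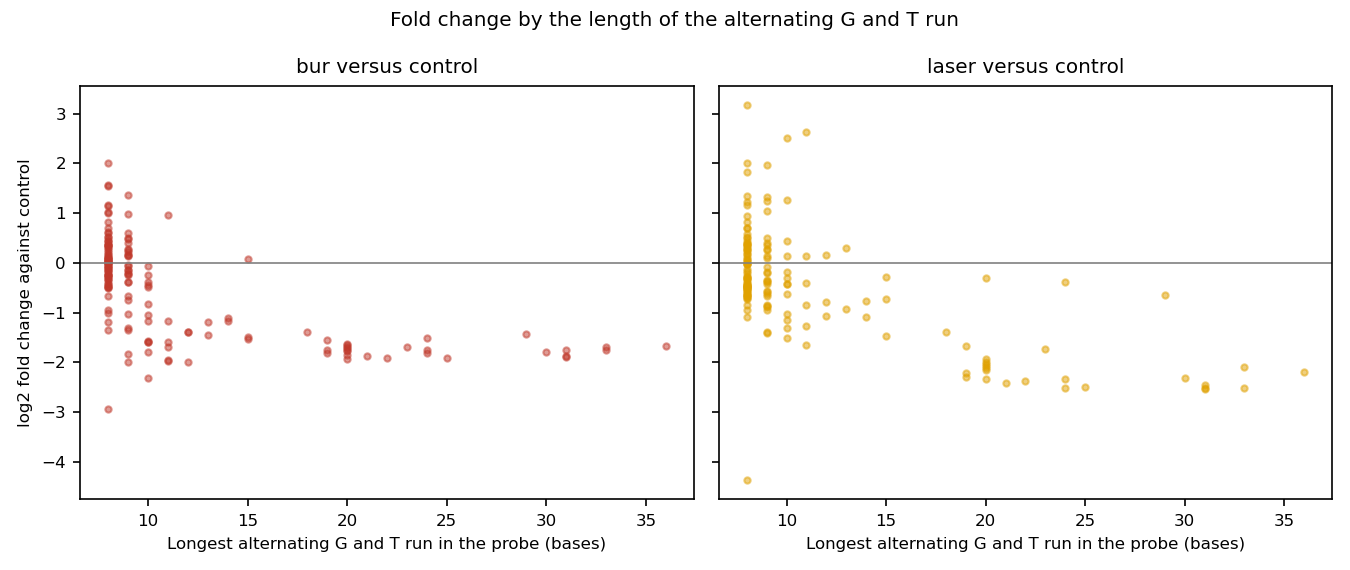
Log2 difference from control of each kept probe with an alternating run of 8 or more bases of G and T against the length of that run, for bur and laser. Of the probes with runs of 16 or more, 25 of 27 were lower on all 8 cut arrays, and the medians were -1.75 with the bur and -2.20 with the laser.

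Other lists gave no common gene in either direction. Of the 39 lists described, 14 were of this kind, with 172 measured members. They were the neutrophil, osteoblast, hypoxia response, antioxidant and metallothionein, immediate early, T and NK cell, BMP and TGF-beta, EGF receptor ligand, circadian clock, skeletal muscle, adipocyte, chondrocyte, epidermis, and mast cell and basophil lists. Several held pooled calls: 9 of 19 BMP and TGF-beta genes rose, 5 of 14 antioxidant genes rose, 4 of 16 immediate early genes rose and 1 fell, 3 of 15 hypoxia genes rose, and 3 of 17 T and NK cell genes rose and 1 fell. Against controls 2 and 3, 3 BMP and TGF-beta genes, 2 immediate early genes and no antioxidant, hypoxia or T and NK cell gene rose, and no immediate early or T and NK cell gene fell. There 1 BMP and TGF-beta gene was common higher and 1 gene of the EGF receptor ligand list common lower. Of the hypoxia list 6 rose with the bur and none with the laser, and laser was below bur for 7 of the 15. Of the antioxidant list 5 rose and none fell with the bur, while none rose and 4 fell with the laser.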

How the data were processed

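Total RNA of 12 calvarial bone samples (4 bur, 4 laser, 4 control) (200 ng each) was labelled with the dye Cy3 for single-colour arrays, per the labels' protocols. Spot intensity was deposited as scanner output. The submitters' processing notes name Agilent Feature Extraction 11.0.1.1, and its processed signal is already background-corrected per the file headers. The authors' deposited expression values are on the log2 scale, quantile normalized per the file's title, and served as an alternative, on the same probe for a gene where they hold it. The authors' deposited comparisons give p-values and adjusted p-values, and call 1498 of 21080 entries higher and 1888 lower in both methods.

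Here log2 of the processed signal was quantile normalized (R 4.3.3, limma 3.58.1, version 1.17.8 of data.table, Python 3.11.15, pandas 2.3.3). Values are means over the spots of a probe, without control spots or spots marked as outliers. Kept were 27194 probes well above background on at least 4 of 12 arrays, on at least a share of 0.5 of the probe's spots. Of 45598 probes, 24470 were named through RefSeq accessions (GRCr8), 3130 of these with a new symbol, 11663 kept the file's name and 9465 had none. The brightest probe stood for a gene (4787 genes had more than 1). Probes of a gene often differed, and where a named gene's probes differed in call this is said.

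All arrays entered 1 limma fit, with Benjamini-Hochberg adjustment over 16432 genes. The cut contrast was the mean of the bur and laser means minus the control mean. Errors on differences are standard errors of the fit, and the number of arrays limits their precision. On simulated data with 200 changed genes among 16432, the cut contrast recovered 57% of changes of 1 log2 and 89% of changes of 2 log2, and 40% and 84% were common. The simulated noise was normal and independent between genes, and both methods had the same change. Far more genes were called in the data, so these rates do not give the recovery there. The alternatives were normexp (offset 50), 75th percentile scaling, the authors' values, other filters on dim probes, the mean over probes, array weights, a replicate block, and arrays left out.

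Genes were named by this rule: the 15 highest common genes above background on all cut arrays, the 15 lowest above background on all control arrays, by the smaller of the 2 methods' differences, and, from each list described, up to 4 genes of smallest p, together with members against the list's direction. Symbols beginning LOC or RGD were passed over. Common members of a list with 5 or fewer were also named. Some genes taken by these rules are left out. Other genes are said to be chosen after their values were seen. The members and lists were chosen with earlier results of these data known. Mbp, Gapdh, Hba-a1, Hbb, Trim10 and the genes of the repeat probes outside the 15 lowest were also named after their values were seen. Hba-a1, Hbb and Trim10 are not among the 113 named genes counted below.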

Additional observations from a re-analysis of the deposited data

Results flagged for a closer look

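Of the 113 named genes looked at, 15 were flagged because laser and bur differed by limma's test of laser minus bur. All 15 were common genes. Ccl2, Icam1, Msr1, Ddx58 and Gapdh, which were not common, also differed in that test and are not among the 15, so 15 is not the count over all named genes. Among secreted and receptor genes of inflammation, laser minus bur was -2.89 log2 for Ccl7, -2.14 for Ccl12, -2.17 for Wfdc21, -1.97 for C3ar1, -1.73 for Cd14, -1.37 for Ch25h and -0.74 for Il13ra1. Each was higher than control with both methods. Pdk1 was also higher with both, at a laser minus bur of -0.80. Wnt5a rose further with the laser, by 0.76 log2, and Car2 was less far below control with the laser, by 0.70. Some genes read by GT-repeat probes were lower with the laser than with the bur, by -0.58 for Pax3, -0.62 for Acbd4, -0.66 for Iba57, -0.70 for Tcf15 and -0.70 for Gramd1c. Not all such probes went this way: Cldn15 stood at -1.50 with the bur and -0.38 with the laser, and Hivep3 at -1.71 and -0.30. Slide and method cannot be told apart in these differences.

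One array lay far from the other 3 of its group for 13 of the 339 groups of arrays looked at, where chance flags about 1 in 20 groups. Among genes higher in cut bone, Aldh1l2 was at 7.11 log2 on bur 3, Arl11 at 5.52 on laser 3 and Prrx2 at 6.78 on control 2. Hspb8 was at 5.19 on bur 4 and at 3.78 on laser 4, Ddx58 at 5.88 on laser 1, and Il6 at 0.77 on control 1, below background. Among genes lower in cut bone, Slc7a10 was at 4.34 on bur 2, Klf1 at 7.85 on laser 2 and Hdac8 at 10.36 on control 4. Reln was at 5.82 on bur 2, within 0.1 log2 of the other bur arrays. Csf3 was at 6.75 on bur 4 and at 6.78 on control 4, which left the narrowest gap between its cut and control arrays.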

How the results depend on the processing

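Of the 113 named genes, none changed direction in the pooled contrast under the alternatives run. Without controls 1 and 4, 16 named genes were no longer called in the pooled contrast, and the calls were 1292 higher for the pooled contrast, 1059 for bur, 1799 for laser and 293 common. Common higher genes numbered 331 with 75th percentile scaling. Bur called 3335 genes higher with no filter on dim probes, and laser minus bur 1169 higher among genes above background on all 12 arrays. Bur against control within slide 1 alone called 1368 higher and 1013 lower. A 2-fold minimum in each method left 231 and 325 common genes. Common under every setting with all genes were 140 higher and 476 lower. Some named genes were common in fewer settings than the failures named above would imply. Il11 and Tfrc were common in 12 of 19 settings, and Cd14, Col6a2 and Vwf in 13. Calr, Ntrk3, Ssc5d and Tnfrsf11b were common in 14. Leaving out 1 array at a time gave 2223 to 3087 higher and 1879 to 2294 lower calls in the pooled contrast, 1601 to 2553 and 1122 to 1594 for bur, and 2179 to 3005 and 1972 to 2895 for laser. It gave 1390 to 2001 higher and 1489 to 2567 lower for laser minus bur, where 1489 came without laser 3. Common genes then numbered 476 to 879 higher and 796 to 1029 lower. Same-numbered samples shared only a number, with correlations of their deviations from -0.11 to 0.35. The replicate block gave 566 common genes higher and 910 lower. The causes of these changes were not tested. Dim genes are limited by background: 53 common higher genes were above background on no control array. On no bur array above background were 31 common higher and 21 common lower genes, and their bur differences rest on signals below background. Every common gene was above background on at least 1 laser array.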
